A study of Mus musculus with 6 samples.

Results

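The genes that encode the prohormone convertases and the other enzymes and helpers of peptide hormone maturation were examined in synchronized mGLUTag cells. They were chosen by symbol from a list of 8 genes, namely PCSK1, PCSK2, PCSK1N, SCG5, CPE, CPD, PAM and FURIN. Probes were found for 7 of the 8, with 15 probes among the 45281 on the array, which carry 30854 symbols in all. No probe carried the symbol of Cpd, and its mRNA was not analysed here. mGLUTag is an immortalized line from mouse intestinal L-cells, so all samples come from 1 line. The cells were serum-starved, exposed briefly to forskolin, which raises cAMP and sets the cellular clocks to a common phase, and returned to growth medium. RNA was taken 4 h (n = 3) or 16 h (n = 3) after synchronization, the times taken by the study for the high and the low point of Arntl, a core clock gene. Both groups are labelled with the same treatment and with different times, the slide of each array is not given in the sources used here, and no unsynchronized or untreated control was analysed here. The labels do not say whether the samples of a time point came from separate cultures, so p-values measure only the spread between these samples, which may be technical.

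Peptide hormones are made as longer precursors and cut inside the secretory pathway. Prohormone convertase 1/3, the product of Pcsk1, cleaves proglucagon after pairs of basic residues and releases GLP-1 in the L-cell, whereas convertase 2, the product of Pcsk2, releases glucagon in the pancreatic alpha cell. Furin, a related convertase, acts mostly in the trans-Golgi network on many secreted and membrane proteins. The protein proSAAS, from Pcsk1n, can inhibit convertase 1/3, and 7B2, from Scg5, is a chaperone that convertase 2 needs to become active. Carboxypeptidases E and D, from Cpe and Cpd, then trim the basic residues left at the cut end. The amidating enzyme, from Pam, converts a C-terminal glycine to an amide with the help of copper and ascorbate.

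To show the promoters of the convertases beside their mRNA values, the 250 bases before the annotated start were read from RefSeq (GRCm38.p6) for 7 of the 8 genes, in 9 windows. These are all of the 8 but Cpe, and so include Cpd, which had no probe. The 3 windows printed here are those of both neuroendocrine convertases and of the chaperone of convertase 2. Capitals mark TGACG, the core of the cAMP response element, and TGACGTCA, its full palindrome, each searched on both strands, so that CGTCA is TGACG on the opposite strand and the palindrome holds both. The Pcsk1 window is chr13:75089607-75089856 on the plus strand, the Pcsk2 window is chr2:143545883-143546132 on the plus strand, and the Scg5 window is chr2:113829092-113829341 on the minus strand. All are written 5′ to 3′ in the direction of the gene.
Pcsk1: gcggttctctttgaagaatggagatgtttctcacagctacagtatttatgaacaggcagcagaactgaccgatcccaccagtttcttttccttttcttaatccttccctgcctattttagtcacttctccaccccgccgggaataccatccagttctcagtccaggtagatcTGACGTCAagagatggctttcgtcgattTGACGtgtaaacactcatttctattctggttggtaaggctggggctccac
Pcsk2: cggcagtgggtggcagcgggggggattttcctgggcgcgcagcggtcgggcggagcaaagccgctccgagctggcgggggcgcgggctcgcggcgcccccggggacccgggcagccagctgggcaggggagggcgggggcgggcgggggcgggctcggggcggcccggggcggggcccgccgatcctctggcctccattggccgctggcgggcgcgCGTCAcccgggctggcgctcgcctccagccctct
Scg5: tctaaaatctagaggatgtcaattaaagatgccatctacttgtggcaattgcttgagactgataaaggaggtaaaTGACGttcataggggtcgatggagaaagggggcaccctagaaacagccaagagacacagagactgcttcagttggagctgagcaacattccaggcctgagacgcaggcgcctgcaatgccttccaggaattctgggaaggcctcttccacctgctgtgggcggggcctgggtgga

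The palindrome TGACGTCA lay 78 to 71 bases before the start of Pcsk1 and in none of the other windows of these genes. It was found in 1.55% of the 32851 promoter windows of the same length. A further TGACG lay 50 to 46 bases before the Pcsk1 start. The shorter TGACG was present in 4 of the 9 windows (those of Pcsk1, Pcsk2 and Scg5 and 1 of the Furin windows), and in 17.8% of all windows. The E-box CACGTG, which clock transcription factors can bind, was in none of the 9 windows and in 6.02% of all windows. The noncanonical E-boxes that the study examined in the Scgn promoter were not searched, and neither were bases beyond 250. The G and C content was 46.8% in the Pcsk1 window and 82.4% in the Pcsk2 window, against a median of 52.4% over all windows. These matches describe letters in a window, and binding was not measured.

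The 4 h arrays were brighter than the 16 h arrays. Their mean deposited intensity lay between 291 and 354 units, against 216 to 246 at 16 h, a ratio of 1.37, and among the 14941 probes that exceeded a noise limit on each of the 6 arrays, 98.2% had the higher deposited mean at 4 h. Changes below are therefore given from quantile normalized log2 intensities, as 4 h minus 16 h, which removes any change shared by most probes. Whether the brightness came from the RNA or from the hybridization was not tested. That limit, taken on each array from the size of its negative values, was 9.2 to 14 units. A probe is called detected here where it exceeded the limit on at least 3 arrays. Of 9 L-cell and enteroendocrine markers, 7 lay above it on all arrays, with a summed intensity of 38570 to 46617 units at 4 h and 24618 to 30209 at 16 h. PYY, an L-cell hormone, lay above it on none. None of the 3 beta cell and 3 leukocyte markers lay above it on any array, and of the 3 enterocyte markers with a probe none reached it on 3 arrays. Of the 2 goblet cell markers with a probe, Tff3 lay above it on all arrays and MUC2 on none, and their summed intensity was 628.6 to 865.3 units at 4 h and 532.2 to 780.7 at 16 h. Of the 5 fibroblast markers, COL1A1 was above it on all arrays and the other 4 on none. The part of other cell types in the results was not tested. Less RNA per cell and fewer cells of a type cannot be told apart in such bulk samples.

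To determine whether the processing enzymes differ between the time points, the probes were read out of a limma fit over all 45281 probes. None of the 15 passed the threshold (Benjamini-Hochberg adjusted p under 0.05, lowest 0.5093), where 0.00883% of all probes did. At an unadjusted p under 0.05, 3 of the 15 passed, all lower at 4 h, where 5.42% of all probes did in either direction. These were 2 probes of Pcsk2 and the probe of Pcsk1n, and the same 3 were lower on every 4 h array than on every 16 h array, which 5.38% of all probes were. In the other direction, 1 probe did not overlap, against 5.54% of all probes, and it was a Pcsk1 probe with values below 0 on every array. Of the 15 probes, 11 were detected, with a median log2 change of -0.067, and 4 of their estimates lay above 0 and 7 below it. The median over all 17366 detected probes was 0.0044. Without normalization between arrays, all 11 estimates lay above 0. With median scaling, all but those of 2 Pcsk2 probes and 1 Furin probe did. These settings keep a rise of 0.392 and 0.303 in the median of the probes above noise on all arrays. Under median scaling, 3 of the 15 had an unadjusted limma p under 0.05, those of Scg5, Cpe and Furin, all higher at 4 h. In either direction, 8638 of all probes did. Without background correction, 1 of the 15 and 2237 of all probes did. On the deposited scale, 3 of the 10 probes above the limit on all arrays did not overlap and were higher at 4 h, those of Scg5, Cpe and Furin, against 49.2% of all such probes.

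**Figure D1:**
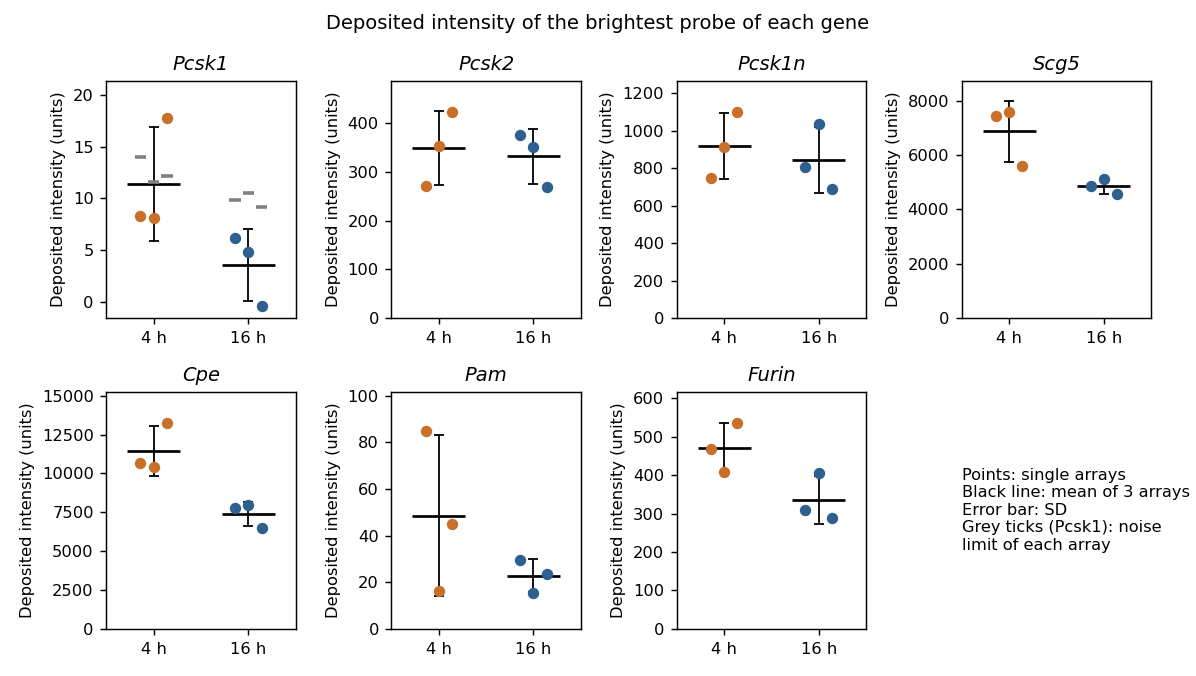
Deposited intensity (units, linear axis from 0 or just below) of the brightest probe of each processing gene in each of the 3 arrays at 4 h and the 3 at 16 h. Points are arrays, black lines are group means with the SD as error bar, and grey ticks in the Pcsk1 panel are the noise limit of each array. Cpe, Scg5 and Furin were higher on every 4 h array, Pcsk2, Pcsk1n and Pam overlapped, and Pcsk1 exceeded the limit on 1 array.

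Pcsk1, whose product makes GLP-1, was at the limit of detection. Its brightest probe (ILMN_2680894) read 8.3, 8.1 and 17.8 units at 4 h and 6.2, 4.8 and -0.4 units at 16 h. It lay above the noise limit on 1 of the 6 arrays, replicate 3 of 4 h, and so is given no change. All 4 h values were above all 16 h values on the deposited scale. So were those of 49.2% of the probes above noise on all arrays, a set without this probe. The share among probes at the noise limit was not counted. The other Pcsk1 probe (ILMN_2576158) was between -3.2 and -1.6 units at 4 h and between -6.1 and -2.8 units at 16 h, above the limit on none. A difference in Pcsk1 mRNA was not detectable at this signal, and the values do not show that the transcript was absent.

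Pcsk2 was detected by each of its 5 probes on all 6 arrays, and the normalized values of its 2 brightest probes were lower on every 4 h array, without passing the adjusted threshold. The brightest (ILMN_2721800) read 271.4, 353.4 and 422.8 units at 4 h and 375.3, 351.5 and 268.2 units at 16 h. These deposited values overlapped, with means of 349 ± 75.8 and 332 ± 56.2 units (SD, n = 3 each) that differed by less than the spread between arrays. After normalization, the log2 values were 8.07, 8.70 and 8.63 at 4 h and 8.99, 8.85 and 8.80 at 16 h, with no overlap. The log2 change was -0.41 (SE 0.151, 95% confidence interval -0.756 to -0.0698), with a limma adjusted p of 0.8306. The second probe (ILMN_1244247) read 222.6, 225.2 and 305.6 units at 4 h and 249.5, 289.1 and 207.9 units at 16 h. Its log2 change was -0.43 (SE 0.107, 95% confidence interval -0.677 to -0.190), with a limma adjusted p of 0.5093.

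The estimates of the other 3 Pcsk2 probes lay nearer 0 at the offset of 50 and their groups overlapped, and the difference between probes was not tested. The log2 change was -0.10 for ILMN_2639674, -0.11 for ILMN_2924391 and 0.14 for ILMN_1218370, with limma adjusted p-values of 0.9782, 0.9665 and 0.9587. Their deposited 4 h to 16 h ratios were 1.37, 1.30 and 2.10, against 1.05 and 1.01 for the 2 bright probes. The first of these ranged from 46.8 to 131.4 units at 4 h and from 49.0 to 80.4 units at 16 h, and the dimmest from 26.4 to 59.9 and from 10.7 to 26.7 units. The offset added before the log shrinks the changes of dim probes. Without background correction, these 3 had estimates of -0.22, -0.23 and 0.54, and the 2 bright probes of -0.50 and -0.55. Which part of the transcript each probe reads was not examined here. The first 4 h array was the lowest for both bright probes after normalization. Without it, their log2 changes were -0.21 and -0.31. The difference also rested on the normalization, at -0.020 and -0.065 with median scaling and 0.069 and 0.024 without normalization between arrays. It was -0.42 and -0.45 with cyclic loess and -0.40 and -0.42 with linear scaling. The mean of the 5 probes changed by -0.18.

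**Figure D2:**
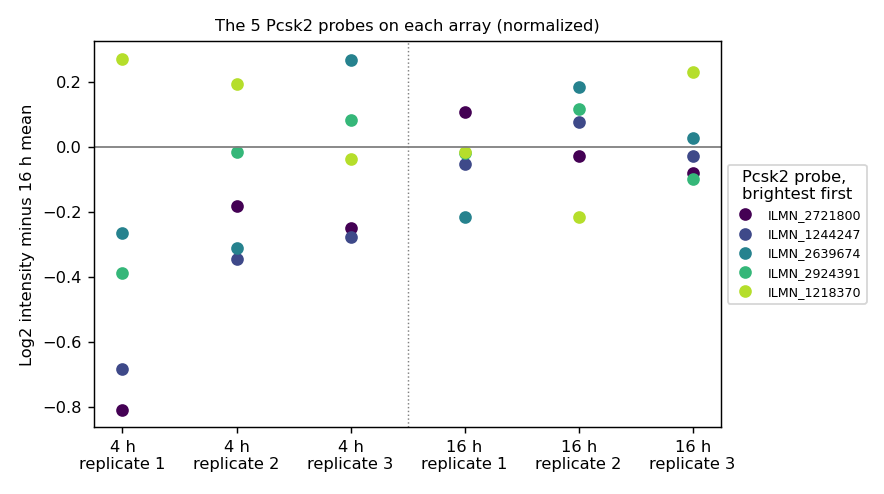
Normalized log2 intensity of the 5 Pcsk2 probes on each array, minus the probe's own mean over the 16 h arrays, coloured by probe. The 2 brightest probes lie lower on all 3 arrays of 4 h than on any of 16 h, and the other 3 overlap.

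To compare the GLP-1 route with the glucagon route, the within-array log2 difference between the brightest Pcsk1 and Pcsk2 probes was set at 4 h against 16 h. It was -1.96, -2.54 and -2.35 at 4 h and -2.87, -2.77 and -2.85 at 16 h, which is not a ratio of transcript levels, since probes differ in efficiency. The difference was 0.54 higher at 4 h, with every 4 h array above every 16 h array and an exact two-sided permutation p of 0.1, the smallest that 3 arrays against 3 can give. The Pcsk1 probe was above noise on 1 array, so this value gives no change for Pcsk1, and 0.41 of it is the lower Pcsk2 reading. With median scaling the value was 0.159 (exact permutation p = 0.4). Relative to this Pcsk2 probe, 32.1% of probes above noise on all arrays were higher at 4 h without overlap, by deposited values. The share by normalized values was not counted. Whether the balance of the 2 convertases differed could not be tested with these probes.

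Of the helper proteins, proSAAS had an estimate below 0 and 7B2 one of 0.03, and neither passed the adjusted threshold. The Pcsk1n probe (ILMN_2664455), which reads the mRNA of proSAAS, gave 746.4, 912.6 and 1099.5 units at 4 h and 805.9, 1035.6 and 687.8 units at 16 h. The deposited values overlapped, and after normalization all 4 h values were below all 16 h values. The log2 change was -0.37 (SE 0.148, 95% confidence interval -0.710 to -0.0382), with a limma adjusted p of 0.8777. The first 4 h array was again the lowest, and without it the change was -0.19. The direction turned to 0.036 with median scaling and 0.12 without normalization between arrays.

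The Scg5 probe (ILMN_2592953), which reads the mRNA of 7B2, gave 7436.7, 7582.1 and 5580.9 units at 4 h and 4873.1, 5126.0 and 4571.3 units at 16 h. All deposited 4 h values were higher, with a ratio of means of 1.41, close to the ratio of 1.37 in mean intensity of the arrays. After normalization the groups overlapped, and the log2 change was 0.03 (SE 0.129, 95% confidence interval -0.262 to 0.322, limma adjusted p of 0.9934). It was 0.39 with median scaling and 0.48 without normalization between arrays. The interval leaves room for a change of either sign, and the difference between the Pcsk1n and Scg5 changes was not tested.

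Cpe, which encodes the main carboxypeptidase of secretory granules, had an estimate above 0 that did not pass the adjusted threshold. The probe (ILMN_1228232) read 10662.9, 10385.9 and 13265.3 units at 4 h and 7749.9, 7958.5 and 6505.9 units at 16 h. All deposited 4 h values were above all 16 h values, with means of 11438 ± 1589 and 7405 ± 785 units (SD, n = 3 each) and a ratio of 1.55. The normalized values overlapped, with a log2 change of 0.23 (SE 0.130, 95% confidence interval -0.0610 to 0.528) and a limma adjusted p of 0.9241. It was 0.080 without replicate 3 of 4 h, 0.36 without replicate 1 of 4 h and 0.088 with linear scaling. With median scaling it was 0.53 (limma adjusted p = 0.06357). It passed the threshold only where arrays were not normalized against each other, at 0.62 (adjusted p = 0.0406), where the median of the probes above noise on all arrays itself rose by 0.392.

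Pam, which encodes the amidating enzyme, was dim and variable. Its brighter probe (ILMN_2626294) read 84.8, 16.3 and 44.8 units at 4 h and 29.7, 15.3 and 23.6 units at 16 h. The first 4 h array stood highest and the groups overlapped. The log2 change was 0.13 (SE 0.149, 95% confidence interval -0.212 to 0.465, limma adjusted p of 0.9674), and -0.03 without the first 4 h array. It was 0.29 with median scaling, 0.38 without normalization between arrays and 0.30 without background correction. The other Pam probe (ILMN_1236965) was above noise on 1 array.

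Furin, the convertase of the trans-Golgi network, had an estimate close to 0. Its brightest probe (ILMN_3148489) read 468.3, 408.6 and 536.7 units at 4 h and 310.1, 406.7 and 289.4 units at 16 h. All deposited values were higher at 4 h, although the lowest 4 h array and the highest 16 h array differed by little. The log2 change was -0.04 (SE 0.0909, 95% confidence interval -0.249 to 0.162, limma adjusted p of 0.9828), and it was 0.35 with median scaling and 0.44 without normalization between arrays. A second probe (ILMN_1252364) was above noise on 3 arrays with an estimate of -0.07, and the last (ILMN_3069914) on none. The estimate of the second probe was -0.13 with an offset of 16 and -0.85 without background correction.

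**Figure D3:**
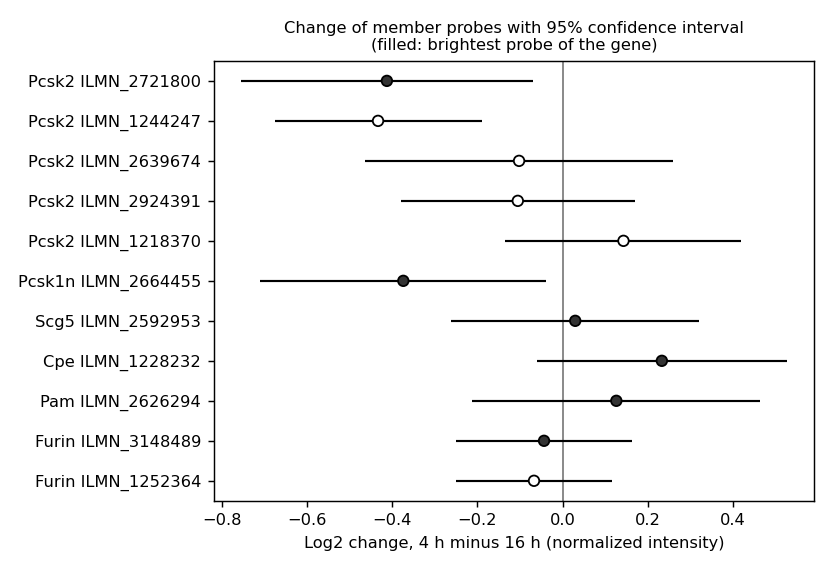
Log2 change (4 h minus 16 h, normalized) of each detected probe, with its 95% confidence interval as a line and the brightest probe of a gene filled. Intervals of 2 Pcsk2 probes and the Pcsk1n probe lie below 0, before adjustment for the number of probes, and all others cross 0.

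To set the other enzymes beside Pcsk2 without normalization between arrays, the deposited intensity of each was divided by that of the brightest Pcsk2 probe on the same array. This comparison was chosen after the values had been seen. The Cpe to Pcsk2 ratio was 39.3, 29.4 and 31.4 at 4 h and 20.7, 22.6 and 24.3 at 16 h, and the groups did not overlap. Its log2 change was 0.56, with an exact two-sided permutation p of 0.1 and 0.333 after Benjamini-Hochberg adjustment over 10 comparisons. Of all probes above noise on all arrays, 32.1% likewise did not overlap and were higher at 4 h relative to this Pcsk2 probe.

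The remaining ratios to the brightest Pcsk2 probe overlapped between the time points. The Furin ratio was 1.73, 1.16 and 1.27 at 4 h and 0.826, 1.16 and 1.08 at 16 h, a log2 change of 0.43 (exact permutation p = 0.2). The Scg5 ratio was 27.4, 21.5 and 13.2 at 4 h and 13.0, 14.6 and 17.0 at 16 h, a log2 change of 0.42 (exact permutation p = 0.3). For Pcsk1n it was 2.75, 2.58 and 2.60 at 4 h and 2.15, 2.95 and 2.57 at 16 h, a log2 change of 0.06 (exact permutation p = 0.7). For Pam the change was 0.78 (exact permutation p = 0.4), with the first 4 h array far above the others.

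With the second Pcsk2 probe in the denominator, Cpe again separated the time points, at 47.9, 46.1 and 43.4 against 31.1, 27.5 and 31.3, a log2 change of 0.61 (exact permutation p = 0.1). The Furin ratio then also separated them, at 2.10, 1.81 and 1.76 against 1.24, 1.41 and 1.39, a log2 change of 0.49 (exact permutation p = 0.1). Both had an adjusted p of 0.333, and 48.5% of the probes above noise on all arrays were likewise higher without overlap. Separation of the time points on this scale was thus common on these arrays.

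**Figure D4:**
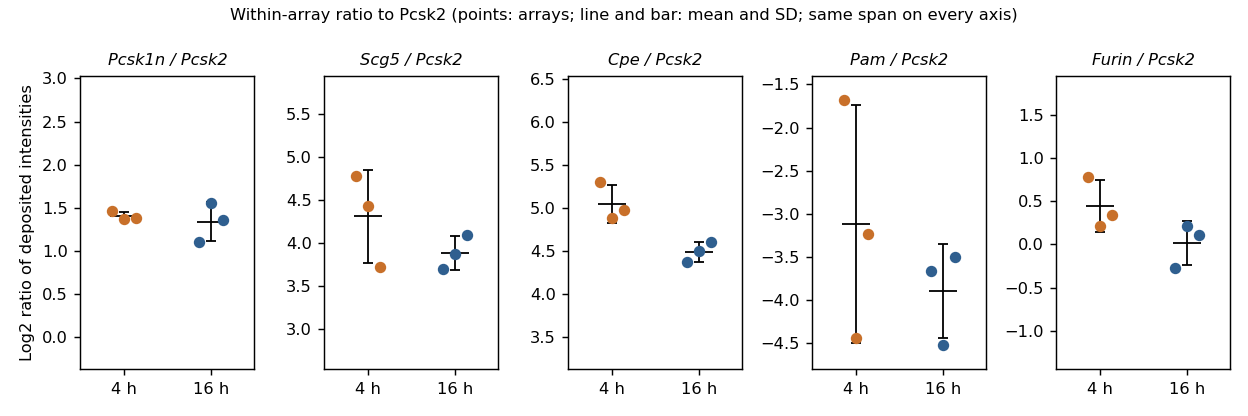
Within-array log2 ratio of deposited intensity to the brightest Pcsk2 probe for each other detected member. Points are the 3 arrays of each time point and black lines are the mean with the SD as error bar, and every axis spans the same range. The Cpe points do not overlap between 4 h and 16 h, and those of Pcsk1n, Scg5, Pam and Furin do.

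The transcripts with the profile most like Pcsk2 over the 6 arrays, by the root mean square difference of centred normalized log2 values, were AP2B1 (0.0558), CHMP4B (0.0784) and 4933431K14RIK (0.0966). The SD of Pcsk2 itself over the arrays was 0.32. AP2B1 encodes a subunit of a clathrin adaptor and CHMP4B a subunit of the membrane-remodelling ESCRT machinery, and their own log2 changes were -0.39 and -0.35. For Pcsk1 the nearest were MYNN (0.0162), ANK3 (0.0214) and SCGN (0.0217), which are near a profile with an SD of 0.107 from a probe at the noise limit.

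To place these enzymes among their neighbours, 38 genes in 5 lists of related function were read from the same fit. Of these, 28 were detected, none passed the adjusted threshold, and at an unadjusted p under 0.05 there were 4 higher and 2 lower at 4 h. Their median log2 change was 0.042, against 0.0044 over all detected probes. At the same unadjusted level 953 of the 17366 detected probes were higher and 838 lower. Without overlap, 5 of the 28 were higher and 2 lower, against 1060 higher and 925 lower of all detected probes. Of the 2 lower genes, the same in both counts, DPP4 exceeded the noise limit at 16 h alone. Its place in these counts therefore follows in part from the filter.

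Among 5 other convertases, 3 were detected. After normalization, 1 was lower at 4 h without overlap, as were 5.38% of all probes. PCSK4, a convertase best known from germ cells, read 285.0, 206.4 and 226.1 units at 4 h and 210.0, 266.6 and 205.5 units at 16 h, and its log2 change was -0.38 with an SE of 0.0903 (limma, adjusted p = 0.4858). Its deposited values overlapped, as for Pcsk2. This was the brightest of 5 PCSK4 probes, and the others are not given here. PCSK7 and MBTPS1, the site-1 protease, had estimates of 0.04 and 0.06, and PCSK5 and PCSK6 were above noise on no array.

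Of 10 other carboxypeptidases and trimming enzymes, 6 were detected, with a median log2 change of 0.0019. CPN1, the catalytic subunit of carboxypeptidase N, read 729.3, 617.6 and 836.8 units at 4 h and 410.8, 515.0 and 330.7 units at 16 h, and its log2 change was 0.24 with an SE of 0.0897 (limma, adjusted p = 0.8329). CPM, a membrane carboxypeptidase, had an estimate of 0.25 (adjusted p = 0.9201). CPN1, CPM and CTSL were higher on every 4 h array on the deposited scale, as were 49.2% of probes above noise on all arrays. DPP4, which inactivates GLP-1, was dim, at 5.4 to 8.7 units at 4 h and 10.4 to 13.1 units at 16 h. All its deposited 4 h values were below all 16 h values, and the share of all probes with this pattern was not counted. DPP4 exceeded the noise limit on the 16 h arrays alone, so it was counted as detected through the group where it was high. Its estimate was -0.17 (adjusted p = 0.8777). CTSB, the lysosomal protease cathepsin B, had an estimate of -0.12 (adjusted p = 0.9535).

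Of 8 genes for other modifications of secreted peptides, 6 were detected. TPST2, a tyrosine sulfotransferase, read 1209.9, 1144.8 and 1324.2 units at 4 h and 679.8, 826.3 and 623.5 units at 16 h, and its log2 change was 0.25 with an SE of 0.0834 (limma, adjusted p = 0.7438). TPST1, which catalyses the same reaction, had an estimate of -0.09, and the difference between the 2 genes was not tested. QPCT, the glutaminyl cyclase that forms pyroglutamate, had an estimate of 0.11, and PLOD1, a lysyl hydroxylase, of -0.19.

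For the cofactors of the amidating enzyme, 5 of 6 genes were detected and none passed an unadjusted p under 0.05. CYB561, which passes electrons from ascorbate into the granule, had an estimate of 0.13 and SLC31A1, a copper importer, of 0.07. ATOX1, a copper chaperone, had an estimate of -0.30 (95% confidence interval -0.701 to 0.108), and SLC23A2, an ascorbate transporter, of -0.08.

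The precursors that these enzymes cut included the highest estimates of the 5 lists. Of 9 precursors, 8 were detected, all but PYY. INSL5, a relaxin-family peptide of colonic L-cells, read 345.3, 329.9 and 230.7 units at 4 h and 113.2, 82.7 and 96.1 units at 16 h, and its log2 change was 0.77 with an SE of 0.162 (limma, adjusted p = 0.3694). GCG, which encodes proglucagon, had an estimate of 0.35 with an SE of 0.0815 (limma, adjusted p = 0.4606) and read 21125.6, 18961.1 and 18607.2 units at 4 h and 11525.1, 12947.2 and 11298.2 units at 16 h. Both were higher on every 4 h array, before and after normalization. By deposited values, 49.2% of probes above noise on all arrays were so. After normalization, 5.54% of all probes were. NTS and SCT, the precursors of neurotensin and secretin, had estimates of -0.22 and -0.09, with overlapping normalized values. The study lists INSL5 as significantly higher at 4 h, with a larger change than the estimate here. The cause of this gap was not tested. Whether a precursor and a convertase changed differently was also not tested.

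**Figure D5:**
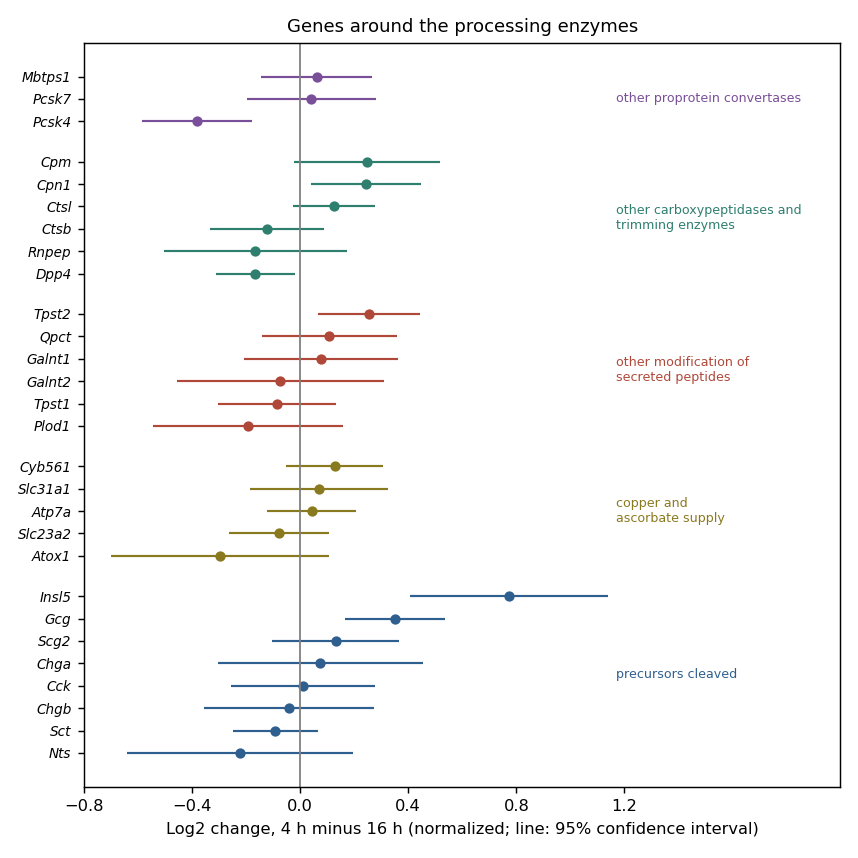
Log2 change (4 h minus 16 h, normalized) with its 95% confidence interval for each detected gene of the 5 lists, grouped by list. INSL5 and GCG lie highest and PCSK4 lowest, and no gene passed the adjusted threshold.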

How the data were processed

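RNA from mGLUTag cells at 4 h and 16 h (3 samples each) was hybridized by the authors to a mouse WG-6 Illumina BeadChip, 1 array per sample. The deposited table holds linear intensity values, background-subtracted and not normalized between arrays, with 31.2% to 34% of values below 0 and no detection p-values. Scanner settings and genome build are not given in the sources used here. The precision is limited by the number of arrays.

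After normexp correction (offset 50), quantile normalization and log2 transformation, values were fitted by time point with limma 3.58.1 (lmFit, eBayes) in R 4.3.3. Benjamini-Hochberg adjustment of the two-sided p-values covered the 45281 probes (threshold 0.05). The offset shrinks changes of dim probes. On each array the noise limit is percentile 99 of the absolute size of the negative values. No change is given for a gene that exceeded it on fewer than 3 arrays. The brightest probe, by mean normalized log2 value, stood for a gene with several. Promoters came from RefSeq (GRCm38.p6). The procedure was tested on simulated data.

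The members and lists were chosen with earlier results of these data known. The genes named from each list are the (at most 2) detected genes with the smallest p in each direction, and those of like profile the 3 nearest to Pcsk1 and to Pcsk2. Further genes named were chosen after their values were seen. A gene of these lists is not reported here and is in none of the counts of the lists. Alternatives were no background correction, an offset of 16, median scaling, cyclic loess, linear scaling, no between-array normalization, filters on dim probes, array weights, trend and robust variance, a block for the replicate number or for a split of the arrays by 18S ribosomal RNA probes, the mean of a gene's detected probes, and leaving out each array.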

Additional observations from a re-analysis of the deposited data

How the results depend on the processing

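Under 19 alternatives, Cpe kept a positive estimate, from 0.08 to 0.62, and passed the threshold under 1, no between-array normalization (0.62, adjusted p = 0.0406), which made 1 of the 15 member probes higher. That setting keeps a rise of 0.392 in the median of the probes above noise on all arrays, and median scaling keeps 0.303. Under no normalization Pcsk2 changed by 0.069, Pcsk1n by 0.12 and Furin by 0.44, and under median scaling Pcsk1n changed by 0.036 and Furin by 0.35, all opposite in sign to the estimates above. Scg5 changed by -0.047 with linear scaling. Leaving out each array gave -0.52 to -0.21 for Pcsk2, -0.47 to -0.19 for Pcsk1n, -0.12 to 0.17 for Scg5, 0.08 to 0.36 for Cpe, -0.033 to 0.28 for Pam and -0.12 to 0.027 for Furin, so the signs of the last 2 and of Scg5 rest on single arrays. Furin was 0.01 without the first 4 h array and 0.027 without the second 16 h array, Pam -0.033 without the first 4 h array, and Scg5 -0.12 without the second 4 h array and -0.0096 without the first 16 h array. The difference between Pcsk1 and Pcsk2 ranged from 0.37 to 0.67 when each array was left out, and was 0.54 with the replicate block, 0.159 with median scaling and 1.99 without background correction, where the lowest Pcsk1 reading was set to the floor of 1 unit, so that the last value depends on that floor. None of these gives a change for Pcsk1, which was above noise on 1 array.

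Over all probes, 2 were higher and 2 lower. The counts higher and lower were 19 and 10 without background correction, 832 and 0 with median scaling, 2308 and 0 without normalization, 0 and 2 with cyclic loess, and 1 and 0 with trend and robust variance. They were 0 and 0 with an offset of 16, the noise limit as filter, the median probe as filter and the replicate block, where limma gave 2486, 1028, 1321 and 2489 probes at an unadjusted p under 0.05. They were 0 to 0 in each direction when each array was left out, with 1849 to 3219 at that level. Of the listed neighbour genes, 3 were higher with median scaling and 8 without normalization. The cause of the other differences between settings was not tested. Samples with the same replicate number had correlations of their deviations of 0.25, 0.17 and -0.49, so the numbers were not taken to pair them, and the block changed no call of a member. For Pcsk1, above the noise limit on 1 array, the signal was too low to give a change.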
